A study of Mus musculus with 6 samples.

Results

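The genes described here are Stat5a and Stat5b, which encode the transcription factors that IL-2 family cytokines activate, and 8 genes known as direct targets of that response: the feedback inhibitors Cish, Socs1, Socs2 and Socs3, the kinases Pim1, Pim2 and Pim3, and the cytokine gene Osm. They were chosen by gene symbol. All 10 were measured, among 23185 genes with a symbol on the arrays, each by 1 probe set. The cells were a line of group 2 innate lymphoid cells (ILC2s), tissue lymphocytes that make type 2 cytokines and lack a rearranged antigen receptor, derived from C57BL/6J mice. The culture medium of both groups held IL-33 and IL-2 (10 ng/ml), and the cells were transduced with a lentiviral CRISPR vector carrying GFP. The vector held either a non-targeting guide (control, 3 arrays) or a guide directed at Myc (labelled Myc knockout, 3 arrays), and GFP-positive cells were sorted on day 6 for total RNA. Sorting on GFP selects transduced cells, not edited ones. Whether replicate arrays stem from independent cultures is not in the labels, so p-values here cover only sample-to-sample spread, possibly technical.

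In lymphocytes, IL-2, IL-7, IL-9 and related cytokines signal through receptors that share the common gamma chain and the kinases JAK1 and JAK3. These phosphorylate STAT5, which enters the nucleus and binds palindromic GAS elements near its target genes. Among the first targets are genes of the CIS and SOCS proteins, which bind the receptor or the kinase, block further signalling and recruit a ubiquitin ligase, so that the pathway limits itself. PIM kinases are active as soon as they are made, so their amount follows transcription, and they support growth and survival. In ILC2s, STAT5 activity is needed for survival, proliferation and cytokine output.

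Promoter sequences from RefSeq (GRCm38.p6) were matched to 8 of the 10 genes, as 11 entries of 300 bases, each with 250 bases before and 50 bases after a transcript start. Osm and Socs2 were not matched. The entries were searched on both strands for TTCNNNGAA, the core of the GAS element, and for CACGTG, the E-box that MYC and MAX bind; each motif is its own reverse complement, and they did not overlap here. Cish and Socs3 held TTCNNNGAA, as did 8.30% of all 32851 promoter entries. Cish held 2 copies, which 0.457% of all entries matched or exceeded. Its copies cover bases 1 to 9 and 12 to 20 of the transcript, and the Socs3 copy begins 154 bases before the start. Of the 11 entries, 1 held CACGTG, against 7.15% of all entries: the second entry of Pim1, which starts within the gene, with the motif 58 to 53 bases before that start. These are matches of letters, not measured binding. The 3 stretches are shown because they carry the only matches. Capitals mark the motifs, and each is written 5′ to 3′ on the gene's own strand. The Cish stretch is chr9:107296409-107296678 (plus strand; 250 bases before the start and the first 20 of the transcript), the Socs3 stretch chr11:117969367-117969616 (minus strand; 250 bases before the start) and the Pim1 stretch chr17:29493015-29493044 (plus strand).
Cish: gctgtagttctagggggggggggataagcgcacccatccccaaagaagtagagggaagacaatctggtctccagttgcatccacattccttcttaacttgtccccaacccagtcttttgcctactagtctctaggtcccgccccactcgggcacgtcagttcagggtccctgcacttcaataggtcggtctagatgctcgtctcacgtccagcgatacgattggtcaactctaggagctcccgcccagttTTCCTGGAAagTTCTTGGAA
Socs3: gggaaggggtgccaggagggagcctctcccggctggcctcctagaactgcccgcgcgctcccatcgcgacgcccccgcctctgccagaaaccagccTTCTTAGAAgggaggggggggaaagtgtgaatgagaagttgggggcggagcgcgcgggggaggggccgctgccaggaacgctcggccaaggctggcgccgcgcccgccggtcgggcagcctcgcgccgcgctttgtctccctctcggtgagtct
Pim1: gtaaacaggaatCACGTGgtctgaaaccag

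The values below are the authors' deposited log2 RMA values. Group values are means ± SD (n = 3 arrays), and a log2 difference is the arrays labelled Myc knockout minus control ± SE from limma, with a 95% interval where given. Passing means an adjusted p (Benjamini-Hochberg, over all 23185 genes) under 0.05. Array medians were 3.27 to 3.34, and the mean of every one of the 10 genes in each group lay above them. Over all genes 59 rose and 46 fell. The SD of log2 differences between arrays was 0.201 to 0.210 among controls, 0.224 to 0.237 among arrays labelled Myc knockout and at most 0.280 between groups. Myc itself was not lower where it was targeted: 9.27, 9.33 and 9.39 in the controls against 9.55, 9.79 and 9.73, a log2 difference of 0.36 ± 0.080 (limma's adjusted p = 0.127). Its mRNA level does not show whether the gene was disrupted, so every direction below rests on the labels.

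None of the 10 genes passed in limma, so 0 of 10 were called higher and 0 of 10 lower, where 0.254% and 0.198% of all genes were. At an unadjusted p under 0.05, 3 were higher (Cish, Osm and Socs1) and 0 lower, against 6.97% and 7.91% of all genes. After median centring of the arrays, 2 were higher and 1, Stat5b, lower, against 5.24% and 9.61% of all genes. Socs1 was then no longer among the higher ones (limma's unadjusted p = 0.0645). The 4 CIS and SOCS genes and Osm had positive differences, from 0.22 to 0.73, so 5 of 10 lay above 0 and 5 below, against 52.2% and 47.8% of all genes; both Stat5 genes and the 3 Pim genes had differences from −0.16 to −0.0022. The median over the 10 was 0.11, against 0.0077 over all genes. With 3 arrays per group an exact two-sided permutation test cannot go below p = 0.1, which Cish, Osm, Stat5b and Pim2 reached. Those are the genes whose groups did not overlap: 2 of 10 upward and 2 downward, against 9.25% and 10.6% of all genes.

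**Figure D1:**
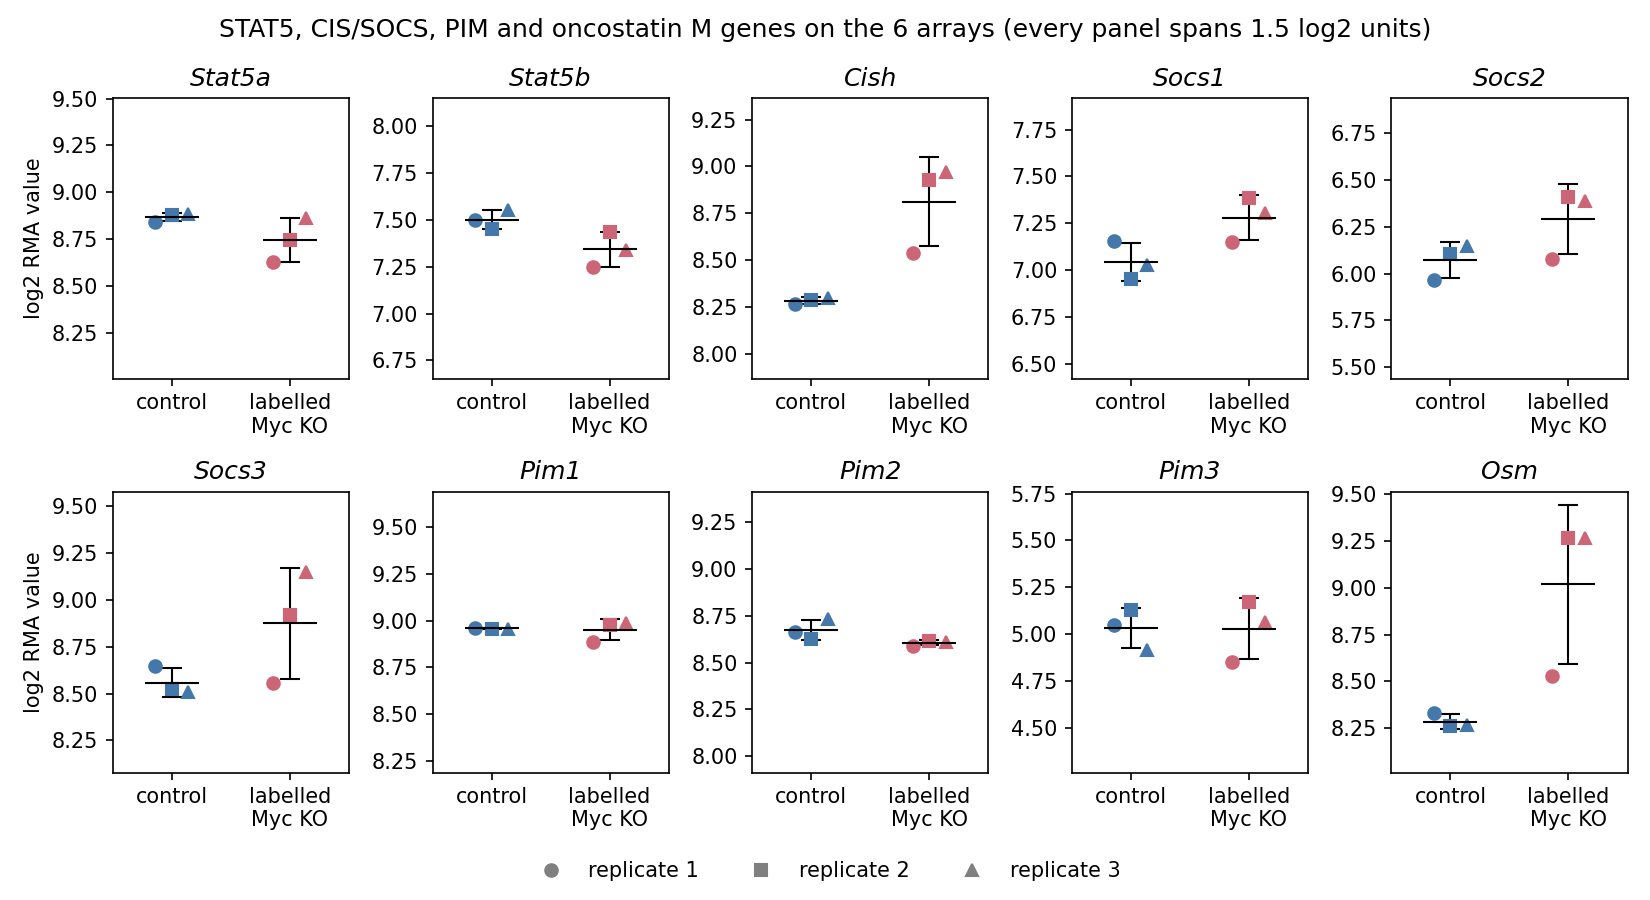
Log2 RMA value (y axis, a span of 1.5 in every panel) of each of the 10 genes on the 3 control arrays and the 3 arrays labelled Myc knockout; circles, squares and triangles are replicates 1, 2 and 3, and bars are mean and SD. The arrays labelled Myc knockout separate upward from the controls for Cish and Osm, and their replicate 1 is the lowest of its group in all 10 panels.

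Stat5a and Stat5b encode 2 closely related STAT5 proteins from neighbouring genes. Stat5a was at 8.84, 8.88 and 8.88 on control arrays, against 8.62, 8.75 and 8.86 in the knockout-labelled group. The groups overlapped, and replicate 3 of the latter lay among the controls. The log2 difference was −0.12 ± 0.074 (interval −0.30 to 0.054; limma's adjusted p = 0.480). It was −0.063 without replicate 1 of that group and −0.18 without replicate 3. Stat5b was at 7.50, 7.45 and 7.55 on control arrays, against 7.25, 7.44 and 7.34 in the knockout-labelled group. Every one of those 3 values lay below every control, by as little as the gap from 7.44 to 7.45, as for 10.6% of all genes. The difference was −0.16 ± 0.069 (interval −0.32 to 0.0077; limma's adjusted p = 0.353). Any lowering of Stat5a beyond 0.30 or of Stat5b beyond 0.32 log2 units lies outside these intervals.

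Cish encodes CIS, which binds phosphorylated receptor chains and competes with STAT5, and carries the paired TTCNNNGAA copies shown above. It was at 8.26, 8.29 and 8.30 on control arrays, against 8.54, 8.93 and 8.97 in the knockout-labelled group. The controls lay within 0.035 of each other and all 3 other arrays stood above them, as for 9.25% of all genes. Means were 8.28 ± 0.018 and 8.81 ± 0.24, a 1.44-fold difference (interval 1.18 to 1.75). Cish had the smallest p of the 10 genes, 0.00348 before adjustment, and ranked 621 of 23185 by p, but did not pass (log2 difference 0.53 ± 0.12; limma's adjusted p = 0.130).

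The SOCS genes differed from control by less, and with more overlap. Socs1, whose protein blocks JAK kinase activity directly, was at 7.15, 6.95 and 7.03 on control arrays, against 7.15, 7.38 and 7.30 in the knockout-labelled group. Replicate 1 of the latter, at 7.15, stood level with the highest control. The log2 difference was 0.23 ± 0.087 (limma's adjusted p = 0.291).

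Socs2, best known as the brake on growth hormone signalling, was at 5.96, 6.10 and 6.15 on control arrays, against 6.08, 6.41 and 6.39 in the knockout-labelled group. Here too replicates 2 and 3 were above all controls and replicate 1 was among them. The log2 difference was 0.22 ± 0.11 (interval −0.034 to 0.47; limma's adjusted p = 0.391).

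Socs3, which restrains receptors of the IL-6 family that signal through STAT3, was at 8.65, 8.52 and 8.51 in the controls. It was at 8.56, 8.92 and 9.15 in the arrays labelled Myc knockout, a range of 0.59 within that group alone. The log2 difference was 0.32 ± 0.15 (interval −0.037 to 0.67; limma's adjusted p = 0.377). It was 0.47 without replicate 1 of that group and 0.18 without replicate 3.

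Pim1 and Pim2 had the narrowest intervals of the 10 genes. Pim1, whose kinase promotes growth and survival downstream of cytokine receptors, was at 8.96, 8.96 and 8.96 on control arrays, against 8.89, 8.98 and 8.99 in the knockout-labelled group, which surround the controls. Its log2 difference was −0.0071 ± 0.056, and the interval of −0.14 to 0.13 allows at most a 1.10-fold lower or 1.09-fold higher level (limma's adjusted p = 0.966). The whole interval lay below that of Cish, 0.24 to 0.81. Pim2, which sustains survival of cytokine-dependent lymphocytes, was at 8.67, 8.63 and 8.73 on control arrays, against 8.59, 8.61 and 8.61 in the knockout-labelled group. The groups did not overlap, but the difference was small, −0.069 ± 0.056 (interval −0.20 to 0.065; limma's adjusted p = 0.595). Pim3, the gene of the third kinase of the family, was at 5.05, 5.13 and 4.92 against 4.85, 5.17 and 5.07. Its groups overlapped, with a difference of −0.0022 ± 0.10 (interval −0.24 to 0.24; limma's adjusted p = 0.995), and its sign turned under cyclic loess and with array weights.

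Osm encodes oncostatin M, a secreted cytokine of the IL-6 family and a STAT5 target in haematopoietic cells. It was at 8.33, 8.26 and 8.27 on control arrays, against 8.53, 9.26 and 9.26 in the knockout-labelled group. All 3 of those stood above the controls, but replicate 1 lay 0.24 above the control mean and replicates 2 and 3 lay 0.98 and 0.98 above it. Means were 8.29 ± 0.038 and 9.02 ± 0.43, a 1.66-fold difference (interval 1.19 to 2.31). Osm had the largest difference of the 10, 0.73 ± 0.20, and ranked 111 of 23185 from the highest difference. It did not pass (limma's adjusted p = 0.183).

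**Figure D2:**
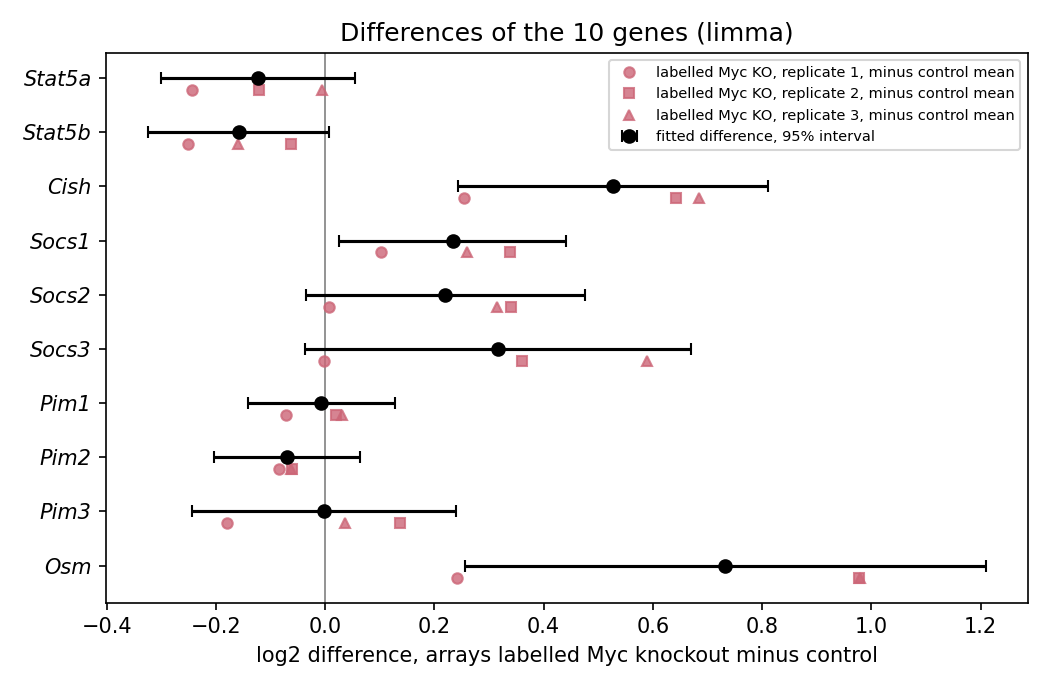
Log2 difference of each of the 10 genes (x axis), arrays labelled Myc knockout minus control: black points and bars are limma's estimates with 95% intervals, and coloured symbols are the 3 arrays labelled Myc knockout minus the control mean. Intervals for Cish, Socs1 and Osm lie above 0, while that of Pim1 spans −0.14 to 0.13.

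The 10 genes shared their lowest array in the group labelled Myc knockout, while the highest was replicate 2 for 5 genes and replicate 3 for the other 5. Replicate 1 was the lowest of the 3 for 10 of 10 genes, whereas it was lowest for 32.6% of all genes. The SD was larger in this group than in the controls for 9 of the 10 genes, all but Pim2, against 54.0% of all genes. Without that array, the log2 difference of Osm was 0.98 ± 0.055 (interval from 0.84; limma's adjusted p = 0.0618) and that of Cish 0.66 ± 0.053 (limma's adjusted p = 0.0686). In that fit limma's unadjusted p was under 0.05 for 5 of the 10 genes upward, against 6.61% of all genes, and 0 passed. The array left out is the one that was lowest for these genes, and leaving out any other array gave 2 or 3.

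Among 11592 other genes at or above the median brightness, the 5 whose values over the 6 arrays were most like those of Cish were Lipk, Rpp40, Fosl1, St8sia4 and Fos (Pearson's r from 0.992 to 0.998). The 6 points share the group labels, so this is a description only. Fos, an immediate early gene of the AP-1 family, was at 4.76, 4.76 and 4.76 on control arrays, against 6.30, 7.63 and 8.25 in the knockout-labelled group. Its log2 difference was 2.63 ± 0.45 and that of Fosl1, a relative, 1.09 ± 0.21. Neither passed, with limma's adjusted p = 0.0796 and 0.0998. Both were lowest in replicate 1 of their group, as Cish was, but selection by likeness to Cish favours the same order. Lipk and St8sia4 differed by only 0.080 ± 0.053 and 0.11 ± 0.055.

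Upstream of STAT5 and beside it, all 8 measured of 9 other STAT and Janus kinase genes had negative differences, and for 7 the groups did not overlap (10.6% of all genes in that direction). None passed in limma, and 6 were lower and 0 higher at an unadjusted p under 0.05. Over all genes 7.91% were lower and 6.97% higher at that threshold, the shares to set beside every such list count below. The median of the 8 was −0.29. Jak1, the kinase paired with the specific receptor chains, was at 10.75, 10.75 and 10.78 on control arrays, against 10.33, 10.38 and 10.44 in the knockout-labelled group (−0.37 ± 0.057; limma's adjusted p = 0.0647). Jak3, the kinase bound to the common gamma chain, differed by −0.45 ± 0.084 and Stat6, which acts downstream of IL-4 and IL-13, by −0.37 ± 0.057 (limma's adjusted p = 0.0949 and 0.0665). Jak3 was singled out after its value was seen. When the prior variance followed intensity, and with the dimmer part of the genes left out, Jak1, Jak3 and Stat6 passed as lower. All 8 differences stayed below 0 under each of the 14 alternatives, both rescalings included.

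Receptor chains that feed STAT5 were mixed, with 9 of 12 differences below 0, against 47.8% of all genes. Of 12 measured of 13, 1 fell and 0 rose, and 4 had a lower and 1 a higher level with limma's unadjusted p under 0.05 (median −0.13). Il9r fell from 7.32 ± 0.089 to 6.77 ± 0.062 (1.46-fold; limma's adjusted p = 0.0405, but 0 receptors passed under cyclic loess). Il15ra and Csf2rb, the IL-15 chain and the shared chain of the IL-3, IL-5 and GM-CSF receptors, differed by −0.36 ± 0.093 and −0.29 ± 0.079 without passing. The IL-2 receptor genes Il2ra and Il2rb, singled out as the receptor of the cytokine in the medium, were at 0.19 ± 0.059 and 0.10 ± 0.060 (limma's adjusted p = 0.232 and 0.478). Il2rg, the gene of the common gamma chain, was listed but not measured. Il7r, the IL-7 chain, was lower without overlap (−0.22 ± 0.076, limma's adjusted p = 0.263). Of 10 ligand genes of these receptors, 9 had positive differences, against 52.2% of all genes, or 7 after median centring and 6 under cyclic loess. Of these, 3 rose and 0 fell (median of the 10 0.086), and these were Il9 (6.07 ± 0.12 to 7.48 ± 0.23), Il21 (2.92 ± 0.16 to 3.70 ± 0.11, near the array medians) and Il5 (9.53 ± 0.041 to 10.01 ± 0.063). Limma's adjusted p was 0.0205, 0.0419 and 0.0386. After median centring Il9 and Il21 passed and Il5 did not. Il15 and Il3, at 1.47 and 1.62 in controls, were below the array medians and differed by 0.23 ± 0.13 and 0.14 ± 0.083. Il2 was at 1.31 and 1.34 in the 2 groups, below the array medians. Il7, Tslp and Csf2 were also below them, at 1.39, 1.56 and 1.79 in controls, and Il4 differed by 0.0026 ± 0.12. With dim genes left out, 3 of the 10 ligand genes remained, all with positive differences.

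The remaining brakes on the pathway had differences of both signs, most of them negative. Of the other 4 SOCS genes, 3 had negative differences and Socs6 one of 0.084 ± 0.15, with 0 past the threshold in limma, and 2 lower at an unadjusted p under 0.05 (median −0.15). Socs7 differed by −0.22 ± 0.062 and Socs4 by −0.24 ± 0.086. Of 14 other inhibitors, phosphatases and PIAS proteins among them, 12 had negative differences (median −0.13), and Ptpn2 and Cbl were at 0.096 ± 0.062 and 0.051 ± 0.065. None passed in limma, and at an unadjusted p under 0.05 there were 0 up and 4 down. Ptpn6, the gene of the phosphatase SHP-1, differed by −0.29 ± 0.056 (limma's adjusted p = 0.0982), and Pias3 by −0.40 ± 0.097 without passing. The 5 measured genes of the ubiquitin ligase that SOCS proteins recruit, of 7 names listed, gave 0 past the threshold and 0 at an unadjusted p under 0.05 in limma (median −0.037), with Elob at −0.15 ± 0.092 and Rnf7 at 0.20 ± 0.16.

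**Figure D3:**
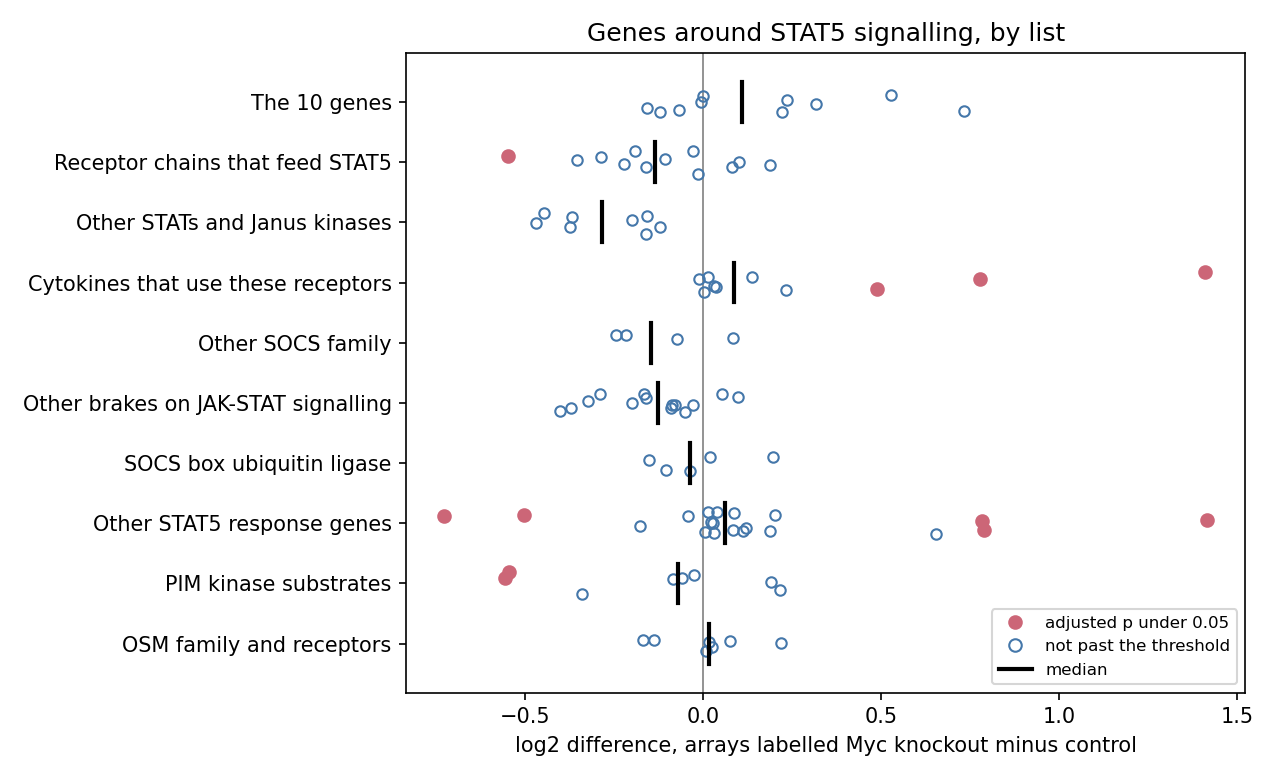
Log2 difference (x axis), arrays labelled Myc knockout minus control, of each measured gene in the 10 genes and in 9 lists around STAT5 signalling; each circle is a gene, filled where the adjusted p was under 0.05, and black lines are medians. The other STAT and Janus kinase genes all lie below 0, and filled circles are in 4 of the 9 lists and in none of the 10 genes.

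Other genes reported to respond to STAT5 moved in both directions. Of 20, 16 had positive differences, against 52.2% of all genes. After median centring 13 did, with the median over all genes moved from 0.0077 to −0.017. Of the 20, 3 rose and 2 fell, and at an unadjusted p under 0.05 in limma 6 were higher and 3 lower (median 0.062). Lta, the lymphotoxin alpha gene, rose from 5.76 ± 0.22 to 7.18 ± 0.051, Il24, an IL-10 family cytokine gene, from 9.72 ± 0.095 to 10.51 ± 0.13, and Irf4, an activation-induced transcription factor gene, from 6.92 ± 0.16 to 7.71 ± 0.11. Limma's adjusted p was 0.0162, 0.0313 and 0.0405. Bcl6, a repressor gene that STAT5 is known to silence, fell 1.42-fold from 6.54 ± 0.020 to 6.03 ± 0.077, and Foxp3, which STAT5 is known to maintain in regulatory T cells, fell 1.66-fold (limma's adjusted p = 0.0361 and 0.0458; Foxp3 did not pass with array weights). Dusp5, a MAP kinase phosphatase gene, differed by 0.65 ± 0.16 and Tnfrsf9, the costimulatory receptor 4-1BB, by 0.19 ± 0.054 without passing (limma's adjusted p = 0.153 and 0.201). The survival genes Bcl2, Bcl2l1 and Mcl1, singled out as classical targets, differed by 0.021 ± 0.067, 0.087 ± 0.066 and 0.084 ± 0.067.

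Of 8 genes of PIM kinase substrates, 2 fell and 0 rose (median −0.072), and at an unadjusted p under 0.05 in limma 2 were higher and 3 lower. Cdkn1a and Cdkn1b, the genes of the cell cycle inhibitors p21 and p27, fell from 8.37 ± 0.031 to 7.83 ± 0.083 and from 6.95 ± 0.049 to 6.39 ± 0.088 (limma's adjusted p = 0.0353 and 0.0361). The Pim genes themselves differed by 0.069 log2 units at most. These are mRNA levels, and PIM kinase activity on the substrate proteins was not measured. Foxo3 differed by −0.34 ± 0.091 and Cdc25a by 0.21 ± 0.081. Around oncostatin M, 0 of 7 relatives and receptor genes passed in limma, and at an unadjusted p under 0.05 there were 0 up and 1 down (median 0.015). Osmr, the oncostatin M receptor gene, differed by −0.17 ± 0.061. Lifr, at 1.84 in controls and so below the array medians, differed by 0.22 ± 0.11. Lif, the neighbouring gene of Osm, differed by 0.024 ± 0.12 (limma's adjusted p = 0.941), with 6.62 ± 0.077 in controls and 6.64 ± 0.23.

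None of the calls in these lists was kept when any 1 array was left out: each list then had 0 genes past the threshold in limma, and the 6 such fits called 0 to 2 genes higher and 0 to 1 lower over all genes.

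Markers of ILC2s were present. Gata3 was at 9.57, Il13 at 11.1 and Il2ra at 11.4 in controls. Thy1, Il17rb and Hpgd, however, were at 3.21, 2.09 and 1.57 in controls, below the array medians. The mean level over all 16 ILC2 markers was 7.06 to 7.10 on control arrays and 7.06 to 7.15 on arrays labelled Myc knockout, and 1 of 16, Il5, rose. Single ILC2 markers went both ways, with limma's unadjusted p under 0.05 for 5 upward and 4 downward, among the latter Gata3 (−0.25 ± 0.066 without overlap; adjusted p = 0.173). Among markers of other cells, Il17a rose from 2.84 ± 0.17 to 3.79 ± 0.14 (1 of 5 measured ILC3 markers) and Klrk1 from 3.08 ± 0.17 to 3.76 ± 0.038 (1 of 8 NK cell and ILC1 markers), with limma's adjusted p = 0.0353 and 0.0473. Both genes were below the array medians in controls. With any 1 control array left out, 0 genes passed over all genes, so neither of these did. At an unadjusted p under 0.05 in limma, 2 ILC3 markers and 3 NK cell and ILC1 markers were higher, and 0 were lower. The mean level of the ILC3 list went from 2.00 to 2.10 on control arrays to 2.37 to 2.38, and that of the NK cell and ILC1 list from 3.63 to 3.74 to 3.78 to 3.83. The T cell list, with 0 of 8 past the threshold in limma (unadjusted p under 0.05: 1 in each direction), stood at 3.13 to 3.24 and 3.11 to 3.24, with Cd3e at 2.15 and Cd4 at 2.24 in controls, below the array medians. Above them were Cd3g, at 5.47 in controls (−0.43 ± 0.13 without overlap; limma's adjusted p = 0.220), and Cd8a, at 4.73 (0.20 ± 0.15). B cell, myeloid, mast cell and basophil, and erythroid lists also had 0 past the threshold, with limma's unadjusted p under 0.05 for 0, 0, 1 and 0 upward and 0, 1, 1 and 0 downward. Above the array medians, and lower in the knockout-labelled group without overlap, were the myeloid marker Itgam (6.61 to 5.99, −0.63 ± 0.10) and the basophil marker Mcpt8 (−0.47 ± 0.14, to 7.53). Neither passed, with limma's adjusted p = 0.0767 and 0.207. The rest of these 2 lists did not follow them: 2 of 5 myeloid and 3 of 5 mast cell and basophil markers had positive differences. Csf1r, Adgre1 and Cd14 were at 2.24, 1.66 and 3.12 in controls, below the array medians, and Mpo was at 3.31. Cpa3, Tpsb2 and Fcer1a were also below them, at 1.47, 2.93 and 1.13. So was Ms4a2, at 1.64, which was higher without overlap (0.23 ± 0.063). In RNA from a bulk culture, fewer cells that express a gene and less RNA per cell cannot be told apart, and the part of these markers in the differences above was not tested.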

How the data were processed

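Total RNA of 6 samples was measured on Affymetrix arrays, 3 per group, with groups taken from the sample titles. The authors deposited log2 values made with RMA, which subtracts background, equalises the distribution of intensities over arrays and summarises each probe set; RMA and limma 3.14.4 are named in the submitters' processing notes. A shift of all transcripts together is therefore removed. Each probe set is named by an Entrez Gene number. Not given in the sources used here: the genome build, the version of the array and how its probes were assigned to those genes. The number of arrays limits the precision.

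Of 25206 probe sets, 23185 have 1 symbol in the platform annotation and 2021 have none. Differences were fitted over the 23185 with limma 3.58.1 under R 4.3.3, using lmFit, then eBayes without trend or robust setting, covariate or filter, two-sided, with Benjamini-Hochberg adjustment over all of them. The procedure was tested on simulated data with planted differences larger than those of the 10 genes. That test does not cover differences of their size. Members and lists were chosen with earlier results of these data known; the lists hold 150 entries, 141 measured, the others not analysed here. Text names all 10 members, Myc, list members past the threshold, the 2 with the smallest p otherwise and the 5 genes most like Cish; other examples were picked with their values in view. No gene set test was run. Figures were drawn with matplotlib 3.10.9.

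Alternatives were a replicate block, an intensity trend, a robust prior, array weights, median centring, cyclic loess, a filter on dim genes, all probe sets and each array left out.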

Additional observations from a re-analysis of the deposited data

How the results depend on the processing

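Across the 14 alternatives, 0 of the 10 genes passed in either direction in limma, and the differences of Cish, Osm, Socs1, Socs2, Socs3, Stat5a, Stat5b and Pim2 kept their sign. That of Cish ranged from 0.45 to 0.66 (adjusted p 0.0502 to 0.315, lowest with dim genes left out) and that of Osm from 0.61 to 0.98 (adjusted p 0.0618 to 0.367). Pim3 turned to 0.00082 with array weights and 0.045 under cyclic loess. Leaving out 1 array at a time, Pim3 ranged from −0.072 to 0.087, Pim1 from −0.026 to 0.025, the median of the 10 genes from 0.070 to 0.19, their count higher at an unadjusted p under 0.05 from 2 to 5, and lower from 0 to 1. It was also 1, for Stat5b, with an intensity trend, under median centring and with the filter on dim genes.

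Other STAT and Janus kinase genes gave 3 lower past the threshold with the intensity trend and 3 with the filter, and the other brakes 1 with the filter. Receptor chains gave 0 lower under cyclic loess, and STAT5 response genes 1 lower with array weights. Leaving out any array gave 0 for receptor chains, cytokines, STAT5 response genes in either direction and PIM substrates (range 0 to 0). The replicate block also gave 0 for each of these, and 0 genes over all, with adjusted p = 0.218 for Cish. The values gave no sign that replicate numbers pair the samples: deviations of same-numbered arrays correlated at −0.070, −0.012 and −0.017. Whether they were paired is not in the labels. Over all genes, 162 rose and 208 fell with the trend, and 204 and 345 with the filter, against 59 and 46. The causes were not tested. All 10 genes were brighter than the array medians, while Il21, Lifr and several cytokine genes lay near or below them.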

Other observations

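Genes next to the STAT5 targets on the chromosome (GRCm38.p6 order, protein-coding and measured) were listed after the data were seen. Stat5b, Stat5a and Stat3 lie in a row and differed by −0.16 ± 0.069, −0.12 ± 0.074 and −0.16 ± 0.061. Both neighbours of Cish had values above all controls in the 3 arrays labelled Myc knockout: Mapkapk3, a stress kinase gene, at 0.17 ± 0.053 and Hemk1, a methyltransferase gene, at 0.39 ± 0.079 (limma's adjusted p = 0.241 and 0.108). Groups did not overlap upward for 9.25% of all genes and downward for 10.6%. They did not overlap either for Creld2 next to Pim3 (0.18 ± 0.057) and Clec16a next to Socs1 (0.10 ± 0.061). Downward this held for Stat3 and for Fgd2 next to Pim1 (−0.38 ± 0.11). Next to Socs3, Tha1 differed by −0.40 ± 0.093 (no overlap) and Pgs1 by 0.018 ± 0.058. Castor1 and Lif, on either side of Osm, differed by 0.078 ± 0.063 and 0.024 ± 0.12 where Osm differed by 0.73 ± 0.20. Groups overlapped for Pgs1, Castor1 and Lif, and for every neighbour not named here. None of the neighbours passed over all genes.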
